A study of Mus musculus with 71 samples.

Results

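The clock output transcription factors described here are 7 genes, Dbp, Tef, Hlf, Nfil3, Bhlhe40, Bhlhe41 and Ciart, taken from the count table by matching its Ensembl identifiers to these symbols, 7 of the 57010 genes counted. They were named by function, with earlier results of these data known, and all 7 passed the minimum of 10 counts in total. The counts come from the hippocampus of 71 male C57BL/6J mice, labelled WT, whose translating mRNA was purified with an antibody to phosphorylated ribosomal protein S6 (pS6-TRAP) and sequenced. S6 is phosphorylated in active cells, so a level here, in CPM (counts of a gene scaled to a common library total), is the share of a mRNA among the ribosome-bound mRNA captured from whole hippocampal tissue, and it is not a count per cell: fewer cells of a type and less RNA per cell cannot be told apart. Mice had been fed since weaning with normal chow ad libitum (NC ad lib), with a high-fat, high-sugar diet ad libitum (HFS ad lib), or with the latter diet under time-restricted feeding in the last weeks (HFS TRF). On each diet there were home cage mice at zeitgeber time 3 (HC zt3), in the light phase, and at zeitgeber time 15 (HC zt15), in the dark phase, and mice taken 1 h (ORM+1 h) or 12 h (ORM+12 h) after 10 minutes of object recognition memory training, which carry the labels zt3 and zt15. The study describes training as spread over a window of hours, so these labels are approximate for trained mice. Trained and home cage mice with the same label need not share the exact hour. Each of these 12 groups held 6 mice, except HFS TRF at HC zt15 with 5, and values given for the 3 diets in turn follow the order in which the diets are named here. HC zt3 and ORM+1 h formed a first experiment and HC zt15 and ORM+12 h a second one, so the hour and the experiment cannot be told apart.

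The circadian clock of a cell turns on its outputs through transcription factors that it drives itself. The core activators CLOCK and BMAL1 bind E-box sequences in promoters and drive, among others, Dbp. DBP, TEF and HLF are the PAR bZIP activators, which bind D-box sequences, and NFIL3 is the bZIP repressor of the same sites. BHLHE40 and BHLHE41 (DEC1 and DEC2) are repressors that bind E-boxes, and CIART (CHRONO) represses CLOCK and BMAL1 activity. Nfil3 and Bhlhe40 are also known as genes that respond to neuronal activity and other stimuli. The study asked how the high-fat, high-sugar diet and time-restricted feeding act on day-night differences and on the response to training, and the comparisons below give the differences by time, by training and by diet for the 7 factors.

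Promoters are shown for the 4 members whose windows held a searched motif: 3 with an E-box, the sequence through which the clock is known to act, and Hlf with a cAMP response element. The windows are RefSeq sequences of build GRCm38.p6, from 250 bases before to 50 after a transcription start, and the bases before the start are printed 5′ to 3′ on the gene's strand, with the E-box CACGTG or the cAMP response element TGACGTCA in capitals. The table had windows for 6 of the 7 members, with no entry for Bhlhe40.
Ciart (chr3:95882229-95882478, minus strand): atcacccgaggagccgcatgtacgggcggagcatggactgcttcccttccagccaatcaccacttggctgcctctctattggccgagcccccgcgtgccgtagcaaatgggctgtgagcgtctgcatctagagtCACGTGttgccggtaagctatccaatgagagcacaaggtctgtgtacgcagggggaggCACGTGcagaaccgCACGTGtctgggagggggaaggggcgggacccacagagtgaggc
Bhlhe41 (chr6:145865421-145865670, minus strand): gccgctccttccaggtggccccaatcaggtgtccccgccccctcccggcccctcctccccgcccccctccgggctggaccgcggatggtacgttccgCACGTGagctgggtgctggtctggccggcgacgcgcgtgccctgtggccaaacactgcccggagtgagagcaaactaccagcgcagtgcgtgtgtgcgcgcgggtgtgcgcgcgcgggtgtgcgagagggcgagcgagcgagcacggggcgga
Tef (chr15:81811164-81811413, plus strand): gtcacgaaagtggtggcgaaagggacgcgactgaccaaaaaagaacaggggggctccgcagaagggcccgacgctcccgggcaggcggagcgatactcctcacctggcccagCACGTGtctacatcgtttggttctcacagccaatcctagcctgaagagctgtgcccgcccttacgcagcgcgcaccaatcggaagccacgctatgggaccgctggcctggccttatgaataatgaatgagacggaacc
Hlf (chr11:90390918-90391167, minus strand): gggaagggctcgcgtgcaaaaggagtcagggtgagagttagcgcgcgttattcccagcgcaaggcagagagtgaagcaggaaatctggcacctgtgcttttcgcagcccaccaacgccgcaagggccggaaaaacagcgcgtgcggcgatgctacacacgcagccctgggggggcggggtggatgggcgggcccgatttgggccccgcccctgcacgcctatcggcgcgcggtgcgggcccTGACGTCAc
The Ciart window held 3 E-boxes, beginning at positions -116, -58 and -44 where -1 is the last base before the start. At least 3 E-boxes stood in 29 of the 32851 windows of the table (0.0883%), and 1 or more in 7.15%. Bhlhe41 had 1 E-box at -153, and each of the 2 Tef windows had 1, at -127 in the other window and at -138 in the one printed. Hlf had no E-box in its window and a cAMP response element at -9, a motif found in 1.79% of windows. None of the searched motifs stood in the windows of Dbp and Nfil3. The other motifs searched, on both strands, were CACGTT (in 4.68% of windows) and the D-boxes TTATGTAA (0.938%) and TTACGTAA (0.119%), and no window of a member held one. The motifs of a member did not overlap. A match describes these letters in these windows and nothing about binding.

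The members lie on 6 chromosomes of GRCm39. Dbp (ENSMUSG00000059824) is at chr7:45354512-45359627 on the plus strand, Tef (ENSMUSG00000022389) at chr15:81686622-81711064 on the plus strand and Hlf (ENSMUSG00000003949) at chr11:90227221-90281761 on the minus strand. Nfil3 (ENSMUSG00000056749) is at chr13:53121245-53137010 on the minus strand and Ciart (ENSMUSG00000038550) at chr3:95785815-95789991 on the minus strand. Bhlhe40 (ENSMUSG00000030103, chr6:108636626-108644502, plus strand) and Bhlhe41 (ENSMUSG00000030256, chr6:145803969-145811430, minus strand) share chromosome 6. Counts are summed over the exons of a gene. Dbp shares 539 exonic bases with Sphk2 on the other strand, and the strand setting of the counting is not given in the sources used here, so reads of these bases cannot be assigned with certainty. Sphk2 itself stood at 47.9 to 72.1 CPM, with medians of 56.0 CPM at HC zt3, 59.3 CPM at ORM+1 h, 54.3 CPM at HC zt15 and 56.0 CPM at ORM+12 h. The counted genes that share exons with Tef, Bhlhe40, Bhlhe41 and Ciart were below 2 CPM in every mouse.

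Per length, Tef was the most abundant of the 7, and Nfil3 the least. The median over the 71 mice, in CPM per kb of exon, was 43.5 for Tef, 28.7 for Dbp, 24.7 for Bhlhe40, 19.3 for Hlf, 7.10 for Bhlhe41, 4.86 for Ciart and 4.26 for Nfil3. All later values are CPM of the whole gene, which compare mice and not genes. Raw counts behind them went down to 380 (Ciart) and up to 23930 (Tef), so that no member was near the limit of detection. The factors differed in how far they moved: the ratio of the highest to the lowest of the 12 group means was 2.75 for Nfil3, 2.18 for Dbp, 2.06 for Ciart, 1.46 for Hlf, 1.38 for Bhlhe40, 1.32 for Bhlhe41 and 1.16 for Tef. Within a group the mice varied least for Tef, with a median coefficient of variation of 6.15%, and most for Nfil3, with 24.9%.

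**Figure D1:**
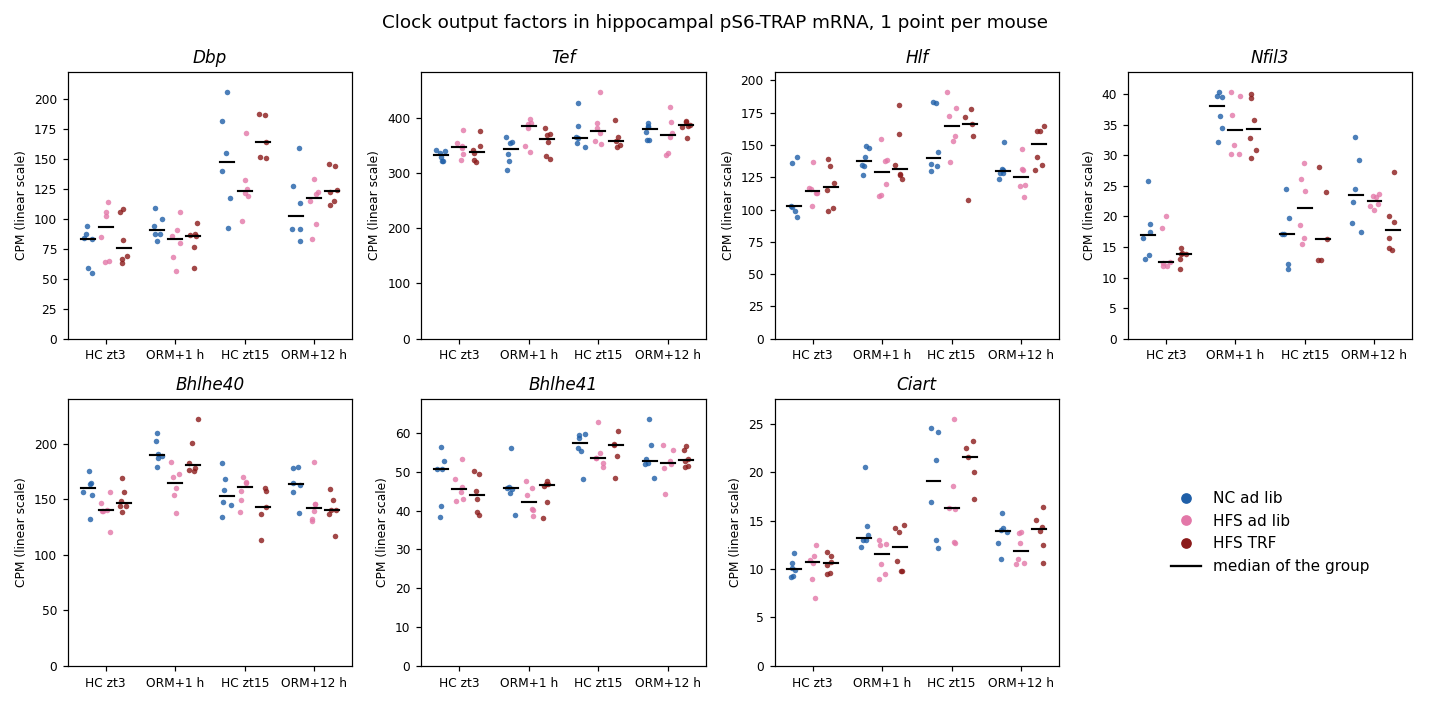
Level of each member in CPM (y axis, linear, from 0) in each mouse (points) by condition (x axis) and diet (colour), with the median of each group as a bar. Nfil3 stands apart at ORM+1 h, where its 18 mice lie at 29.5 to 40.5 CPM, while Dbp and Ciart are highest at HC zt15.

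The libraries held 34698914 to 62758570 counts per mouse (median 53999489), no pair of mice had identical counts, and neuronal markers (Rbfox3, Snap25, Syt1, Slc17a7, Gad1, Gad2 and Camk2a) summed to 10698 to 15164 CPM. Of the markers of other brain regions, Six6, Avp, Prok2 and Vip of the suprachiasmatic nucleus did not exceed 2.78 CPM, with Six6 at 0 in 63 mice, and of the striatal ones Drd2 was at 1.15 to 4.78 CPM and Ppp1r1b at 99.1 to 513 CPM. Of these 6 genes, none was called between HC zt3 and HC zt15 in the comparison averaged over diets. Astrocyte markers (Aqp4, Gfap, Slc1a3, Slc1a2, Aldoc and Gja1, none at 0 in any mouse) differed between conditions: their sum was 898 to 3363 CPM at HC zt3 (median 1289), 1778 to 4651 CPM at ORM+1 h (median 2922), 1415 to 4192 CPM at HC zt15 (median 3098) and 1444 to 4003 CPM at ORM+12 h (median 2374). Choroid plexus markers such as Ttr spanned 94.4 to 18619 CPM over the mice. Endothelial markers were near 0 (0.531 to 9.93 CPM), and microglial markers ranged from 20.01 to 248 CPM. In HFS ad lib mice at HC zt3, replicates 5 and 6 stood apart with 3363 and 3104 CPM of astrocyte markers, against 981 to 1233 CPM in the other 4. Results that rest on these mice are also given without both. In HFS TRF mice at HC zt3, replicates 5 and 6 were highest too, with 2274 and 2097 CPM against 898 to 1330 CPM in the other 4. Those HFS TRF mice were left out singly but not together. Each comparison below that moves with the astrocyte markers is also given from a fit with their mean log2 CPM as a covariate. This fit and the one without both HFS ad lib mice were chosen after the data were seen. The markers themselves differed between conditions, so the covariate can also remove a change that goes with the condition. Whether astrocyte content was the cause of a change was not tested.

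**Figure D2:**
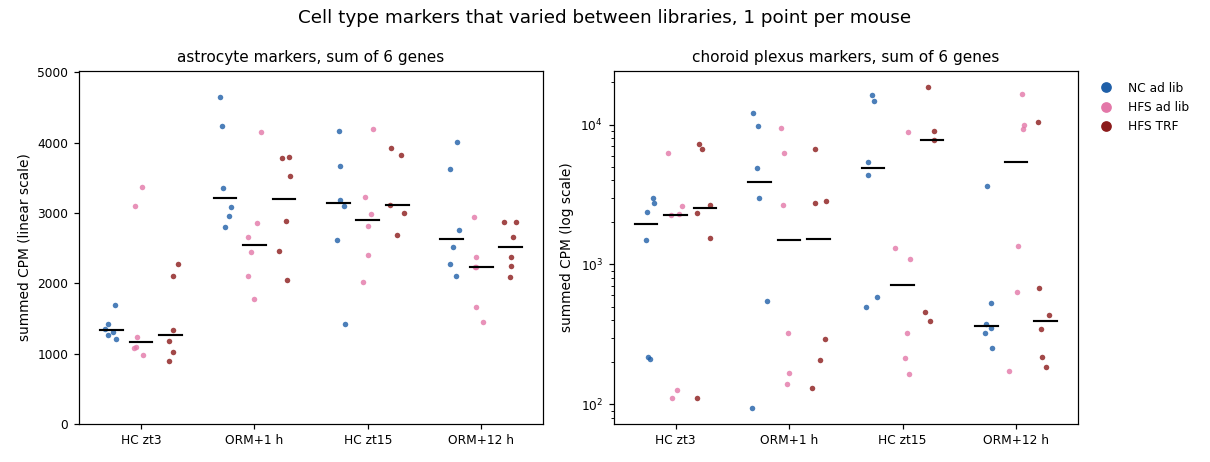
Summed CPM of 6 astrocyte markers (left, linear y axis) and of 6 choroid plexus markers (right, log y axis) in each mouse (points) by condition (x axis) and diet (colour), with group medians as bars. The astrocyte sum is lowest at HC zt3 (median 1289 CPM), and the choroid plexus sum spans 94.4 to 18619 CPM over all mice.

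Between the light and the dark phase, 6 of the 7 factors rose in home cage mice. Averaged over the 3 diets, Ciart was 1.82-fold and Dbp 1.78-fold higher at HC zt15 than at HC zt3, Hlf 1.36-fold, Nfil3 1.26-fold, Bhlhe41 1.197-fold and Tef 1.10-fold. Bhlhe40 stood at a log2 fold change of 0.02 (SE 0.047, adjusted p = 0.863). Of all 30141 genes tested, 12.7% were called higher and 16.9% lower in this averaged comparison, by edgeR's quasi-likelihood test at an adjusted p under 0.05. By diet, 4 members passed in NC ad lib mice (Dbp, Tef, Hlf and Ciart), 5 in HFS ad lib mice (Dbp, Hlf, Nfil3, Bhlhe41 and Ciart) and 4 in HFS TRF mice (Dbp, Hlf, Bhlhe41 and Ciart), each of them higher. The share of all genes called higher was 5.18%, 3.88% and 5.95% on the 3 diets in turn, and the share called lower 6.54%, 6.54% and 8.26%.

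Dbp, a PAR bZIP activator and known target of CLOCK and BMAL1, was at 54.3 to 93.8 CPM in NC ad lib mice at HC zt3 (median 83.4) and at 91.8 to 206 CPM at HC zt15 (median 147). In HFS ad lib mice it went from 64.1 to 114 CPM (median 93.4) to 98.1 to 171 CPM (median 123), and the HC zt3 mice that stood apart in astrocyte markers had 114 and 102 CPM. In HFS TRF mice it was 62.8 to 108 CPM at HC zt3 (median 75.4), and the 5 mice at HC zt15 had 150.3, 151, 164, 186 and 187 CPM. The HFS TRF groups did not overlap, and on each ad lib diet 5 of the 6 HC zt15 mice lay above every HC zt3 mouse of their diet. The log2 fold change was 0.95 (SE 0.16, adjusted p = 8.9e-06), 0.52 (SE 0.16, adjusted p = 0.025) and 1.03 (SE 0.17, adjusted p = 3.64e-06) on the 3 diets in turn. The difference on HFS ad lib lost its call in 3 of 12 fits that left out a mouse, down to 0.42 without 1 of them (HC zt15 replicate 1, adjusted p = 0.105), and it was 0.68 without both mice that stood apart (adjusted p = 0.00633).

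Hlf and Tef, the other PAR bZIP activators, rose less. Hlf had medians of 103, 115 and 118 CPM at HC zt3 and of 139.9, 165 and 166 CPM at HC zt15 on the 3 diets in turn. Its lowest and highest mice were 94.1 and 141, 103 and 137, and 99.1 and 139 CPM at HC zt3, against 130.1 and 183, and 137 and 191 CPM at HC zt15 on both ad lib diets. The 5 HFS TRF mice at HC zt15 had 108, 157, 166, 171 and 178 CPM. The ranges overlapped on every diet, and 12 of the 17 HC zt15 mice lay above the highest HC zt3 mouse of any diet. The log2 fold change of Hlf was 0.43, 0.50 and 0.40 on the 3 diets in turn (SE 0.11 each), with an adjusted p of 0.00277, 0.000399 and 0.00696.

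Tef, the most abundant of the 7 per length, rose on NC ad lib by 0.17 on the log2 scale (SE 0.056, adjusted p = 0.03), from 321 to 342 CPM at HC zt3 (median 332) to 346 to 427 CPM at HC zt15 (median 363), and these groups did not overlap. Leaving out single mice ended that call in 5 of 12 fits, with the weakest value without HC zt15 replicate 6 (0.13, adjusted p = 0.14), and so did 2 of 11 other alternatives (adjusted p up to 0.127). The log2 difference of Tef was 0.14 on HFS ad lib (adjusted p = 0.0878) and 0.09 under time restriction (adjusted p = 0.31). Its ranges were 323 to 378 CPM (median 347) against 353 to 447 CPM (median 376) on HFS ad lib, and 321 to 376 CPM (median 338) against 347, 349.7, 358, 366 and 396 CPM on HFS TRF. Both pairs of ranges overlapped.

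Ciart, the repressor of CLOCK and BMAL1, separated the 2 time points on every diet. NC ad lib mice had 9.21 to 11.7 CPM at HC zt3 (median 9.97) and 12.1 to 24.6 CPM at HC zt15 (median 19.1). HFS ad lib mice had 6.96 to 12.5 CPM (median 10.8) and 12.7 to 25.5 CPM (median 16.3). In HFS TRF mice the range at HC zt3 was 9.46 to 11.8 CPM (median 10.6), and at HC zt15 the 5 mice had 17.2, 19.99, 21.5, 22.5 and 23.2 CPM. No HC zt15 mouse was as low as the highest HC zt3 mouse of its diet. The log2 fold change was 0.88 (SE 0.15, adjusted p = 5.73e-06), 0.74 (SE 0.15, adjusted p = 0.000178) and 0.98 (SE 0.15, adjusted p = 1.17e-06) on the 3 diets in turn, and it was called in every fit that left out a mouse.

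The bZIP repressor Nfil3 passed the test on 1 diet of the 3. It was at 13.1 to 25.8 CPM in NC ad lib mice at HC zt3 (median 17.0) and at 11.3 to 24.5 CPM at HC zt15 (median 17.1), a log2 difference of -0.05 (SE 0.17, adjusted p = 0.937). In HFS ad lib mice it rose from 11.9 to 20.1 CPM (median 12.5) to 15.5 to 28.8 CPM (median 21.3), by 0.58 on the log2 scale (SE 0.17, adjusted p = 0.0187). In HFS TRF mice the log2 difference was 0.48 (SE 0.18, adjusted p = 0.06), between 11.4 to 14.9 CPM (median 13.9) and the 5 values of 12.9, 12.9, 16.3, 24.1 and 28.1 CPM. The Nfil3 ranges overlapped on all 3 diets. The call on HFS ad lib was lost in 4 of 12 fits that left out a mouse, with the weakest value of 0.48 without HC zt15 replicate 5 (adjusted p = 0.078). The HC zt3 mice that stood apart in astrocyte markers had the highest Nfil3 of their group, 20.1 and 18.1 CPM, and the value without both was 0.83 (adjusted p = 0.00115). In that fit the HFS TRF value of 0.48 passed, with an adjusted p of 0.0485. The difference between the HFS ad lib and NC ad lib values was 0.63 (95% confidence interval 0.14 to 1.11) and did not pass the test over all genes (adjusted p = 0.425).

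Bhlhe41 rose by 0.24 on HFS ad lib (SE 0.079, adjusted p = 0.0377) and by 0.32 under time restriction (SE 0.083, adjusted p = 0.00357) on the log2 scale, and its log2 difference in NC ad lib mice was 0.22 (SE 0.079, adjusted p = 0.0591). Its medians at HC zt3 and HC zt15 were 50.8 and 57.5 CPM on NC ad lib, 45.5 and 53.6 CPM on HFS ad lib, and 44.0 and 56.9 CPM on HFS TRF. The ranges overlapped on each diet: 38.4 to 56.4 and 48.3 to 59.8 CPM on NC ad lib, 42.5 to 53.4 and 51.2 to 62.9 CPM on HFS ad lib, and 38.8 to 50.1 and 48.5, 54.1, 56.9, 57.3 and 60.5 CPM on HFS TRF. In HFS ad lib mice 6 of 12 fits that left out a mouse lost the call, and the value without HC zt15 replicate 1 was 0.20 (adjusted p = 0.124). It was also 0.20 without both HC zt3 mice that stood apart (adjusted p = 0.151). Its relative Bhlhe40 had ranges that overlapped throughout: 132 to 176 CPM (median 161) and 134 to 182 CPM (median 153) on NC ad lib, 121 to 157 CPM (median 140.4) and 139 to 170.0 CPM (median 161) on HFS ad lib, and 139 to 169 CPM (median 146) and 113, 137, 143, 157 and 160.1 CPM on HFS TRF. None of its log2 differences passed the test (-0.02, 0.16 and -0.08, with an adjusted p of 0.968, 0.187 and 0.594).

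Other cell type markers moved between these times. All 6 astrocyte markers rose between HC zt3 and HC zt15 in the averaged comparison, with a median log2 fold change of 1.045 beside -0.02 over all genes tested. Of 5 oligodendrocyte markers 2 rose, with a sum of 560.3 to 775 CPM at HC zt3 (median 666) and 523 to 930.3 CPM at HC zt15 (median 749). Of 3 oligodendrocyte precursor markers 1 rose, and their sum did not overlap, at 48.4 to 67.3 CPM against 68.8 to 97.8 CPM. The part of the oligodendrocyte and precursor markers in the results was not tested. Across the mice of a group, after the group means were taken out, the correlation of log2 CPM with the astrocyte markers was 0.647 for Dbp, 0.44 for Ciart, 0.229 for Bhlhe41, 0.121 for Hlf, -0.0385 for Nfil3, -0.153 for Bhlhe40 and -0.17 for Tef (Pearson's r over 71 mice, which share library depth and dissection). With the astrocyte covariate the averaged log2 difference was 0.40 for Dbp (adjusted p = 0.00176), 0.60 for Ciart (adjusted p = 9.24e-06), 0.39 for Hlf (adjusted p = 0.000196), 0.35 for Nfil3 (adjusted p = 0.0472), 0.19 for Bhlhe41 (adjusted p = 0.0217) and 0.17 for Tef (adjusted p = 0.00222). Without it they had been 0.83, 0.87, 0.44, 0.34, 0.26 and 0.14 in the same order. All 6 thus kept their call with the covariate, with Dbp, Ciart, Hlf and Bhlhe41 smaller than before. In HFS ad lib mice alone, Dbp then stood at 0.18 (adjusted p = 0.466) and Bhlhe41 at 0.18 (adjusted p = 0.19), and in HFS TRF mice Bhlhe41 at 0.24 (adjusted p = 0.116) and Hlf at 0.34 (adjusted p = 0.0827), so these 4 calls ended.

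Of 18 core clock genes, 8 were higher and 4 lower at HC zt15 in the averaged comparison, with a median log2 fold change of 0.16, and on the 3 diets in turn 7 higher and 2 lower, 5 and 1, and 7 and 2. Among those with the smallest adjusted p were Cry1 (0.53, adjusted p = 5.3e-14), which represses CLOCK and BMAL1, Bmal1 itself, which fell by 0.56 (adjusted p = 3.5e-12), and the repressor Nr1d2 (0.42, adjusted p = 7.2e-09). Of 7 targets of PAR bZIP factors and the clock, 2 were higher and none lower, Pdxk (0.24, adjusted p = 5.3e-08), which makes the active form of vitamin B6, and the transcription factor Klf9 (0.12, adjusted p = 0.038), and the median of this list was 0.01. Of 10 activity-induced genes, 9 were higher, among them Arc (0.85, adjusted p = 9.4e-09) and Junb (0.53, adjusted p = 1.1e-06), and of 7 glucocorticoid-induced genes 4 were higher, led by Tsc22d3 (0.72, adjusted p = 4.7e-13) and Fkbp5 (0.30, adjusted p = 1.8e-06).

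At 1 h after training, in a comparison that shares the HC zt3 mice with the one above, Nfil3 had the largest difference of the 7 members. Averaged over diets it was 2.36-fold higher at ORM+1 h than at HC zt3, Bhlhe40 and Ciart were 1.21-fold and 1.22-fold higher and Hlf 1.18-fold, and these 4 passed the test. Among all genes, 8.04% were called higher and 6.59% lower in the averaged comparison. By diet, Nfil3, Bhlhe40 and Ciart passed in NC ad lib mice (4.03% of all genes called higher, 1.7% lower), Nfil3 alone in HFS ad lib mice (0.74% and 0.491%), and Nfil3 and Bhlhe40 in HFS TRF mice (2.24% and 0.624%).

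Nfil3 was at 32.2 to 40.5 CPM in NC ad lib mice at ORM+1 h (median 38.0), 30.2 to 40.4 CPM in HFS ad lib mice (median 34.2) and 29.5 to 40.0 CPM in HFS TRF mice (median 34.3). The HC zt3 values given above reached 25.8, 20.1 and 14.9 CPM on these diets, so each of the 18 trained mice lay above all 18 home cage mice. The log2 fold change was 1.082 (SE 0.17, adjusted p = 1.25e-05), 1.27 (SE 0.17, adjusted p = 7.46e-07) and 1.36 (SE 0.17, adjusted p = 5.16e-08). It was called in all fits that left out a mouse and was 1.25 in the averaged comparison with the astrocyte covariate, beside 1.24 without it.

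Bhlhe40, the other member known to respond to activity, was at 179 to 210.2 CPM in NC ad lib mice (median 190.1) and at 176 to 223 CPM in HFS TRF mice (median 181), in both cases above every HC zt3 mouse of the diet. HFS ad lib mice had 138 to 184 CPM (median 165) and overlapped with their home cage mice. The log2 difference was 0.29 (SE 0.081, adjusted p = 0.0152) on NC ad lib, 0.21 (SE 0.081, adjusted p = 0.213) on HFS ad lib and 0.33 (SE 0.081, adjusted p = 0.00815) on HFS TRF. A single mouse ended each of these calls: without HC zt3 replicate 3 the NC ad lib value had an adjusted p of 0.0787, and without ORM+1 h replicate 2 the HFS TRF value had one of 0.0534. The difference between the values on HFS ad lib and NC ad lib was -0.08 (95% confidence interval -0.31 to 0.15, adjusted p = 1).

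Ciart was at 12.3 to 20.5 CPM in NC ad lib mice (median 13.3), above their HC zt3 mice, at 9.01 to 13.04 CPM in HFS ad lib (median 11.5) and at 9.79 to 14.6 CPM in HFS TRF mice (median 12.3). The log2 difference was 0.51 on NC ad lib (SE 0.15, adjusted p = 0.0213), 0.13 on HFS ad lib (adjusted p = 0.812) and 0.21 on HFS TRF (adjusted p = 0.584). The call on NC ad lib was lost in 3 of 12 fits that left out a mouse, with 0.39 and an adjusted p of 0.133 without ORM+1 h replicate 2, the mouse at 20.5 CPM. Hlf passed only in the averaged comparison (0.24, SE 0.061, adjusted p = 0.00325), with medians of 138, 129 and 131 CPM on the 3 diets in turn.

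The remaining members did not pass at ORM+1 h. Dbp was at 81.7 to 109 CPM (median 90.7), 55.9 to 106 CPM (median 82.6) and 59.0 to 96.0 CPM (median 85.8) on the 3 diets in turn, with an averaged log2 difference of 0.04 (SE 0.093, adjusted p = 0.934). Tef was at 305 to 366 CPM (median 344), 338 to 399 CPM (median 385) and 325 to 381 CPM (median 362), and Bhlhe41 at 38.8 to 56.1 CPM (median 45.8), 38.6 to 47.6 CPM (median 42.3) and 38.2 to 47.7 CPM (median 46.7). All these ranges overlapped with those at HC zt3. Their averaged log2 differences were 0.07 for Tef (adjusted p = 0.168) and -0.06 for Bhlhe41 (adjusted p = 0.522).

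The 6 astrocyte markers were all higher at ORM+1 h than at HC zt3 as well, by a median of 1.12 on the log2 scale. With the astrocyte covariate the averaged difference of Ciart was -0.00 (adjusted p = 1) and that of Hlf 0.18 (adjusted p = 0.245), so both calls ended, while Dbp stood at -0.42 (adjusted p = 0.0038), lower at ORM+1 h. Nfil3 (1.25, adjusted p = 2.49e-10) and Bhlhe40 (0.33, adjusted p = 0.000281) kept theirs. The NC ad lib value of Ciart was 0.15 in that fit (adjusted p = 0.807).

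All 10 activity-induced genes were higher at ORM+1 h on each diet, with a median log2 fold change of 1.66 in the averaged comparison beside -0.00 over all genes, and they were led by the immediate early genes Junb (1.53, adjusted p = 9.8e-23), Fosb (2.67, adjusted p = 9.8e-21), Egr2 (3.66, adjusted p = 1e-20) and Egr1 (1.61, adjusted p = 2.6e-20). Of the core clock genes, 7 were higher and 2 lower, and on the 3 diets in turn 5, 1 and 5 higher with none lower. Per1 (1.03, adjusted p = 6.5e-19) and Per2 (0.59, adjusted p = 6.4e-08), clock repressors that also respond to stimuli, led the list, followed by Rorb (1.06, adjusted p = 2.5e-07) and Cry1 (0.27, adjusted p = 2.1e-05). Of the PAR bZIP targets only Klf9 was higher (0.15, adjusted p = 0.014) and Alas1, which starts heme synthesis, lower (-0.20, adjusted p = 0.018), each in the averaged comparison alone. Of the glucocorticoid-induced genes 3 were higher and none lower: Tsc22d3 (0.63, adjusted p = 1.9e-10), the cell cycle inhibitor Cdkn1a (0.66, adjusted p = 8e-06) and Pdk4 (0.99, adjusted p = 9.5e-06), which slows glucose oxidation.

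**Figure D3:**
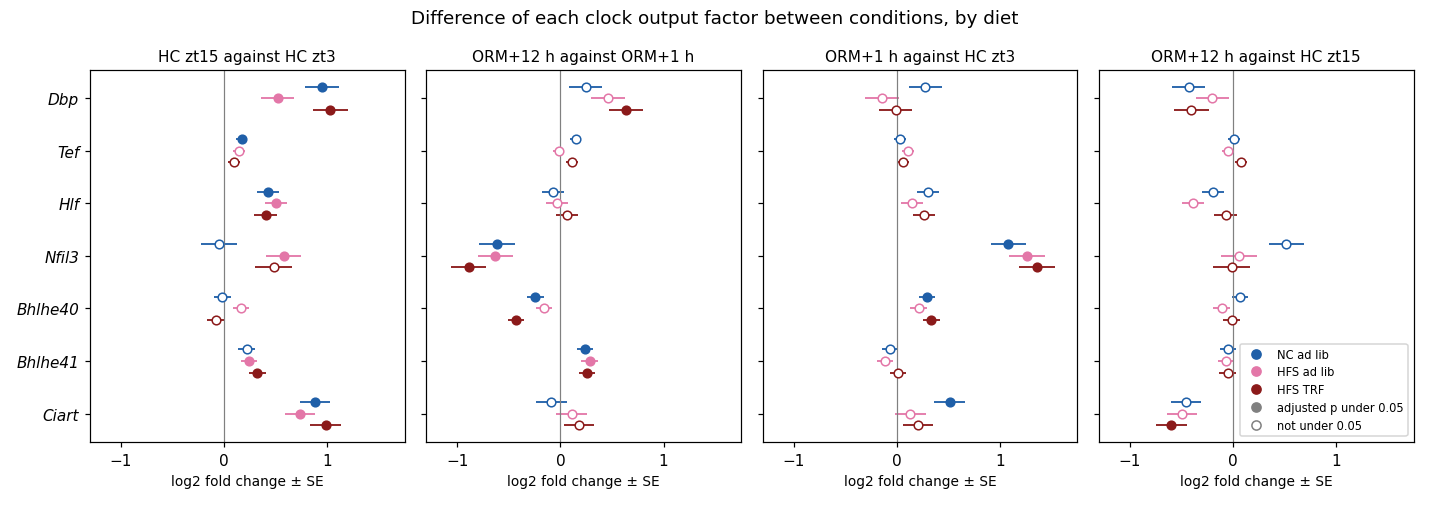
Log2 fold change (x axis) ± SE of each member (y axis) by diet (colour) in 4 comparisons (panels), filled where the adjusted p of edgeR's test was under 0.05. Nfil3 lies at 1.082 to 1.36 for ORM+1 h against HC zt3 on all 3 diets, and Ciart at 0.74 to 0.98 for HC zt15 against HC zt3.

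At 12 h after training, 3 of the factors that had risen from HC zt3 to HC zt15 were lower than in home cage mice labelled zt15, a comparison that shares the HC zt15 mice with that rise. Averaged over diets, Ciart fell by 0.52 on the log2 scale (SE 0.086, adjusted p = 0.00024), Dbp by 0.34 (SE 0.094, adjusted p = 0.0205) and Hlf by 0.22 (SE 0.062, adjusted p = 0.0253) from HC zt15 to ORM+12 h, and the other 4 members did not pass. Over all genes, 2.44% were called lower and 3.58% higher. By diet, the only call was Ciart in HFS TRF mice. On that diet 0.889% of all genes were called lower and 1.57% higher, against 0.0664% and 0.143% in NC ad lib and 0.109% and 0.0697% in HFS ad lib mice.

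Ciart was at 11.1 to 15.8 CPM in NC ad lib mice at ORM+12 h (median 13.9), 10.5 to 13.8 CPM in HFS ad lib mice (median 11.9) and 10.6 to 16.4 CPM in HFS TRF mice (median 14.1). The HFS TRF mice all lay below the 5 home cage mice of HC zt15, of which the lowest had 17.2 CPM, while the ad lib groups overlapped with theirs. The log2 difference was -0.46 (adjusted p = 0.145), -0.49 (adjusted p = 0.121) and -0.60 (SE 0.15, adjusted p = 0.025) on the 3 diets in turn. The call in HFS TRF mice was lost in 4 of 11 fits that left out a mouse, with an adjusted p of 0.101 without HC zt15 replicate 1, and it was not made with the astrocyte covariate (-0.49, adjusted p = 0.0678). In the averaged comparison Ciart kept its call with that covariate (-0.42, adjusted p = 0.00264).

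Dbp at ORM+12 h ranged from 80.9 to 158 CPM in NC ad lib (median 102), 82.9 to 133 CPM in HFS ad lib (median 118) and 112 to 146 CPM in HFS TRF mice (median 123). Again the HFS TRF mice lay wholly below HC zt15 and the ad lib groups overlapped, and the log2 differences by diet were -0.43, -0.20 and -0.40 (adjusted p = 0.201, 0.554 and 0.154). Hlf had 123 to 152 CPM (median 129.7), 109.7 to 147 CPM (median 125) and 130.4 to 164 CPM (median 150.4), with overlap on each diet. With the astrocyte covariate the averaged differences of Dbp (-0.20, adjusted p = 0.125) and Hlf (-0.20, adjusted p = 0.0623) did not pass. None of the 6 astrocyte markers was called between these groups.

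Nfil3 was at 17.5 to 33.0 CPM at ORM+12 h in NC ad lib (median 23.5), 21.1 to 23.7 CPM in HFS ad lib (median 22.6) and 14.5 to 27.3 CPM in HFS TRF mice (median 17.8), and its averaged difference to HC zt15 was 0.19 (95% confidence interval -0.01 to 0.39, adjusted p = 0.282). Bhlhe40 was at 138 to 179 CPM (median 164), 130.2 to 183 CPM (median 142) and 117 to 159 CPM (median 141), an averaged difference of -0.02 (95% confidence interval -0.11 to 0.07). Bhlhe41 was at 48.4 to 63.7 CPM (median 52.8), 44.2 to 57.0 CPM (median 52.4) and 51.2 to 56.8 CPM (median 53.1), and Tef at 359.7 to 391 CPM (median 379), 333 to 419 CPM (median 369) and 364 to 395 CPM (median 386). All of these ranges overlapped with those of HC zt15, and the averaged log2 differences were -0.06 for Bhlhe41 (95% confidence interval -0.15 to 0.04) and 0.01 for Tef (-0.05 to 0.08). No activity-induced gene and no PAR bZIP target was called between ORM+12 h and HC zt15. Of the core clock genes 4 were lower and 1 higher, with Nr1d2 (-0.27, adjusted p = 0.0033), Rorb (-0.54, adjusted p = 0.025) and Cry1 (-0.17, adjusted p = 0.028) lower and Bmal1 (0.21, adjusted p = 0.026) higher, and of the glucocorticoid-induced genes Tsc22d3 (-0.35, adjusted p = 0.0025) and Pdk4 (-0.69, adjusted p = 0.012) were lower.

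The step from ORM+1 h to ORM+12 h spans the same clock labels in trained mice, with time since training and experiment moving along. Of the 7 members, 3 were higher at ORM+12 h in the averaged comparison (Dbp, Tef and Bhlhe41) and 2 lower (Nfil3 and Bhlhe40), where 11.4% of all genes were called higher and 17.3% lower. Nfil3 fell by 0.61, 0.63 and 0.89 on the log2 scale on the 3 diets in turn (SE 0.17 each, adjusted p = 0.00921, 0.00752 and 5.67e-05). Its 2 conditions did not overlap on HFS ad lib and HFS TRF. Bhlhe40 fell by 0.24 on NC ad lib (adjusted p = 0.0352) and by 0.43 on HFS TRF (adjusted p = 3.52e-05), and its difference on HFS ad lib was -0.16 (adjusted p = 0.204). Bhlhe41 rose by 0.24, 0.28 and 0.26 (adjusted p = 0.0369, 0.01 and 0.0133). Dbp rose on HFS TRF (0.64, SE 0.16, adjusted p = 0.0024), without overlap, and was at 0.46 on HFS ad lib (adjusted p = 0.0515) and 0.24 on NC ad lib (adjusted p = 0.334). The HFS ad lib value of Dbp lay at the threshold and passed in 8 of 11 alternatives. With the astrocyte covariate Dbp rose on both ad lib diets, by 0.65 on HFS ad lib (adjusted p = 0.000122) and by 0.41 on NC ad lib (adjusted p = 0.025), where 4 of the 6 astrocyte markers were lower at ORM+12 h in the averaged comparison. The share of all genes called higher or lower was 4.6% and 6.87%, 3.23% and 7.34%, and 7.1% and 10.8% on the 3 diets in turn.

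Some of these calls rested on single mice. In NC ad lib mice the Bhlhe40 call was lost in 8 of 12 fits that left out a mouse, with an adjusted p of 0.121 without ORM+12 h replicate 2, and the Bhlhe41 call in 5 of 12, with 0.126 without ORM+12 h replicate 1. In HFS TRF mice the Bhlhe41 call was lost only without ORM+1 h replicate 5 (0.22, adjusted p = 0.0553). The averaged difference of Tef (0.08, SE 0.032, adjusted p = 0.0489) was lost in 21 of 36 such fits, and with the astrocyte covariate (0.07, adjusted p = 0.156). Hlf (-0.01, 95% confidence interval -0.13 to 0.11) and Ciart (0.07, -0.10 to 0.24) were not called. The 10 activity-induced genes were all lower at ORM+12 h in the averaged comparison, with a median of -1.29 on the log2 scale (10, 8 and 10 lower on the 3 diets in turn), and 5 core clock genes were lower and 1, Nr1d1 (0.36, adjusted p = 8.5e-06), higher. Per1 fell by 0.70 (adjusted p = 5e-13), Per2 by 0.47 (adjusted p = 2.4e-06) and Bmal1 by 0.30 (adjusted p = 3.6e-05).

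A test added after the results had been seen compared the time difference between trained and home cage mice. It restates the training comparisons above and is not separate from them. The difference is the log2 change from ORM+1 h to ORM+12 h minus that from HC zt3 to HC zt15. It equals the change from HC zt15 to ORM+12 h minus that from HC zt3 to ORM+1 h. Averaged over diets it was -1.05 for Nfil3 (SE 0.14, adjusted p = 6.5e-08), -0.80 for Ciart (SE 0.12, adjusted p = 8.68e-07), -0.46 for Hlf (SE 0.087, adjusted p = 6.9e-05), -0.39 for Dbp (SE 0.13, adjusted p = 0.0379) and -0.30 for Bhlhe40 (SE 0.066, adjusted p = 0.000587). Of all genes, 14.3% were called in this test. The training differences behind these values were 1.24 at 1 h and 0.19 at 12 h for Nfil3, and 0.28 and -0.52 for Ciart. By time, Nfil3 rose by 0.34 in home cage mice and fell by 0.71 in trained mice. Ciart rose by 0.87 in home cage mice against 0.07 in trained mice. Bhlhe41 rose by 0.26 in both, with a difference of 0.00 (95% confidence interval -0.12 to 0.12), and Tef differed by -0.05 (-0.15 to 0.04). By diet, the calls were Dbp (-0.71), Hlf (-0.50) and Ciart (-0.97) on NC ad lib, Nfil3 (-1.21) on HFS ad lib, and Nfil3 (-1.37) and Ciart (-0.80) on HFS TRF, where 7.13%, 0.916% and 4.53% of all genes were called. The HFS ad lib share was 2.83% without both HC zt3 mice that stood apart in astrocyte markers. On NC ad lib the call of Dbp was lost in 12 of 24 fits that left out a mouse (-0.59, adjusted p = 0.117 without HC zt15 replicate 2) and that of Hlf in 6 of 24 (-0.44, adjusted p = 0.0658 without HC zt3 replicate 4), and the averaged call of Dbp was lost in 22 of 71 (-0.35, adjusted p = 0.0662 without NC ad lib HC zt15 replicate 2). The astrocyte markers moved with this pattern too: all 6 were called lower in the averaged test, with a median of -1.53. With the covariate, Nfil3 (-1.06, adjusted p = 5.77e-05), Bhlhe40 (-0.37, adjusted p = 0.00642) and Hlf (-0.38, adjusted p = 0.0436) kept their call, and Ciart (-0.42, adjusted p = 0.107) and Dbp (0.22, adjusted p = 0.481) did not. By diet, the calls on NC ad lib all ended with it, with Dbp at -0.08 (adjusted p = 0.984), Hlf at -0.43 (adjusted p = 0.165) and Ciart at -0.57 (adjusted p = 0.141), as did that of Ciart on HFS TRF (-0.39, adjusted p = 0.477). Nfil3 kept its calls, at -1.22 on HFS ad lib (adjusted p = 0.006) and -1.39 on HFS TRF (adjusted p = 0.00244).

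**Figure D4:**
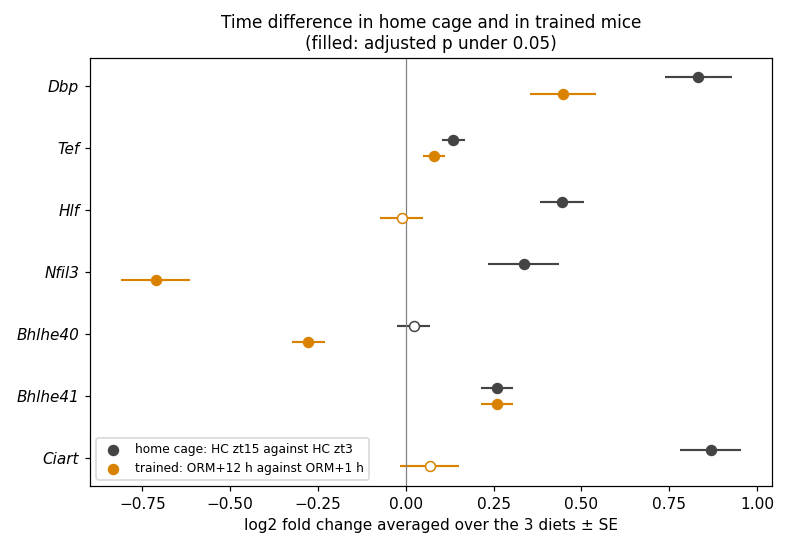
Log2 fold change ± SE (x axis) of each member (y axis), averaged over the 3 diets, between the 2 times in home cage mice (grey) and in trained mice (orange), filled where the adjusted p was under 0.05. Bhlhe41 lies at 0.26 in both, while Nfil3 lies at 0.34 in home cage and -0.71 in trained mice.

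Between diets 1 of the 7 factors passed the test. Averaged over the 4 conditions, Bhlhe40 was lower in HFS ad lib than in NC ad lib mice by 0.14 on the log2 scale (SE 0.04, adjusted p = 0.0432), where 2.61% of all genes were called, and it was the only member to pass. That call was lost in 32 of the 48 fits that left out a mouse of these diets, with an adjusted p of up to 0.0724 (without HFS ad lib ORM+1 h replicate 4), and without both HFS ad lib HC zt3 mice that stood apart in astrocyte markers (-0.13, adjusted p = 0.0767). The averaged difference of Bhlhe40 was -0.11 of HFS TRF from NC ad lib (95% confidence interval -0.19 to -0.03, adjusted p = 0.157) and 0.03 of HFS TRF from HFS ad lib (-0.06 to 0.11). For HFS ad lib against NC ad lib the other members lay between -0.17 for Ciart (-0.31 to -0.02, adjusted p = 0.224) and 0.06 for Tef (0.00 to 0.11, adjusted p = 0.305). No member was called between HFS TRF and HFS ad lib or between HFS TRF and NC ad lib, where 0% and 0.269% of all genes were.

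Within single conditions no member was called between diets. The share of all genes called for HFS ad lib against NC ad lib was 0% at HC zt3 and at ORM+1 h, 0.063% at HC zt15 and 2.27% at ORM+12 h, and for HFS TRF against HFS ad lib 0%, 0%, 0% and 0.00664%. The ranges of the diets overlapped for each member in each of these comparisons. The largest differences were 0.39 for Dbp in HFS TRF against HFS ad lib at HC zt15 (95% confidence interval 0.06 to 0.73, adjusted p = 0.275) and -0.37 for Ciart in HFS ad lib against NC ad lib at ORM+1 h (-0.66 to -0.08, adjusted p = 0.496). No member was called for a difference between diets in its change by time or by training either. For the change by time, the values for Dbp were -0.43 for HFS ad lib minus NC ad lib (-0.89 to 0.02, adjusted p = 0.554) and 0.51 for HFS TRF minus HFS ad lib (0.04 to 0.98, adjusted p = 0.537). In these tests of differences, 0.106% of all genes were called for HFS ad lib minus NC ad lib in the change from HC zt15 to ORM+12 h and 0% in the other 5.

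When the 12 groups of a member were ordered by their mean CPM, no neighbours in that order had ranges that stood apart (0 of 11 neighbouring pairs for each of the 7 members). This was not computed for other genes. It does not concern groups farther apart in the order, and some of those did not overlap, as given above for Nfil3, Ciart and Dbp. Dbp, Ciart and Bhlhe41 had the 3 HC zt15 groups in the first 3 places, as did Hlf, and Nfil3 the 3 ORM+1 h groups. Across all 71 mice, Dbp and Ciart were each the other's closest gene among 14699 genes with a mean of at least 1 CPM (Pearson's r of log2 CPM 0.816), and Dbp was closest to Bhlhe41 (0.778). These r describe mice that share diets, conditions and depth. Next to Dbp stood Sirt2 (0.803) and the core clock repressor Nr1d1 (0.799). After group means were taken out, Dbp was still the closest gene to Ciart (0.661) and to Bhlhe41 (0.615), followed for Ciart by Nr1d1 (0.608) and for Bhlhe41 by the glucocorticoid receptor gene Nr3c1 (0.545), while among the genes closest to Dbp were S100a16 (0.744) and 2810459M11Rik (0.716). At HC zt3, Dbp was lower in replicates 1 and 2 than in replicates 5 and 6 on each diet. On NC ad lib these were 59.1 and 54.3 CPM against 86.8 and 93.8 CPM. At HC zt15 on NC ad lib replicates 1 and 2 were the higher, with 182 and 206 CPM against 91.8 and 117 CPM. The part of replicate order in these r was not tested.

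Nfil3 had other neighbours. Its closest genes were the activity-induced Fosl2 (0.93), Nr4a1 (0.909) and Fosb (0.905) over the 71 mice, and Fosl2 (0.812), Midn (0.796) and Nr4a1 (0.79) within groups, and its r with Dbp was -0.249 and with Bhlhe40 0.597. Hlf was closest to Rcan2 (0.81), Pitpnc1 (0.727) and St3gal4 (0.706), and within groups to Slc17a6 (0.741), the core clock activator Rora (0.738) and Kitl (0.721). Tef was closest to Rims4 (0.798), Castor2 (0.797) and Sh3rf3 (0.765), and within groups to Epb41l1 (0.711), Palm (0.707) and Rims4 (0.707). For Bhlhe40 the closest genes were Etv5 (0.752), Dnajb5 (0.718) and Asap2 (0.711), and within groups Rap1gds1 (0.649), Tox2 (0.622) and Asap2 (0.616). The remaining neighbours were Sox4 (0.714) and Chn2 (0.713) of Bhlhe41 and Prdx6 (0.704) and Kirrel2 (0.703) of Ciart over all mice, and Ppp1r1a (0.52) of Bhlhe41 and Fnbp1 (0.589) of Ciart within groups. Within groups, Dbp and Hlf, both PAR bZIP activators, had an r of 0.182, and Dbp and Tef one of -0.0312.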

How the data were processed

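pS6-TRAP mRNA of 71 mouse hippocampi was sequenced from stranded mRNA libraries. Per the labels and the study's methods, the authors trimmed reads with Trim Galore 0.6.7 and cutadapt 3.4, aligned them to GRCm39 with HISAT2 2.2.0 and deposited raw counts per gene from featureCounts (Subread 2.0.3). The submitters' processing notes also list the build mm9, with no role. The annotation release and the strand setting are not given in the sources used here. Of counts from 1 to 19, 79.0% were even, against 62.6% of those from 200 to 4999, so a read pair may have been counted as 2 and counting error is then understated.

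From these counts, genes with at least 10 counts in total (30141) were fitted with edgeR 4.0.16 in R 4.3.3 (TMM scaling, 1 model of 12 groups over all mice, quasi-likelihood test), with Benjamini-Hochberg adjustment over all genes and a threshold of 0.05. The prior count of log2 CPM was 2. Means over diets weight diets equally. Groups came from the labels, where the titles of HFS TRF mice also read ad libitum and the diet entry was followed. Total counts were 34698914 to 62758570 per mouse. The 7 members were named by function. Of each gene list the text names those with the smallest adjusted p among the called ones, and likeness was Pearson's r of log2 CPM over genes with a mean of at least 1 CPM. Some genes that these rules name are not reported here. The members and lists were chosen with earlier results of these data known. The test across genes was run on simulated data with a change at HC zt15. It covered the home cage time contrast in NC ad lib mice and averaged over diets, in edgeR and DESeq2. Other steps were not simulated. Alternatives were DESeq2 1.42.0 (size factors, and its own test), 2 other filters, fits of the compared groups alone, a replicate block, a choroid plexus covariate and each mouse left out. Halved counts, an astrocyte covariate, a fit without 2 mice high in astrocyte markers, a block within condition and the difference of the time contrasts were added after the data were seen.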

Additional observations from a re-analysis of the deposited data

Results flagged for a closer look

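In 4 of the 84 groups of a member, 1 mouse lay far from the others by Dixon's criterion, which chance meets in about 1 of 20 groups. Hlf was at 152 CPM in NC ad lib ORM+12 h replicate 6, with the nearest mouse at 131 CPM. Bhlhe40 was at 183 CPM in HFS ad lib ORM+12 h replicate 4 (nearest 146 CPM), the mouse with the lowest median correlation to its own group (0.966). Bhlhe41 was at 62.9 CPM in HFS ad lib HC zt15 replicate 1 (nearest 54.9 CPM), and Ciart at 20.5 CPM in NC ad lib ORM+1 h replicate 2 (nearest 14.4 CPM). Leaving out the last 2 mice ended the calls of Bhlhe41 by time and of Ciart by training on those diets.

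The test of the difference of the time contrasts restates the training comparisons at 1 h and 12 h. By that test, the log2 time difference differed between trained and home cage mice in 11 cases. Averaged over diets these were Nfil3 (-1.05), Ciart (-0.8), Hlf (-0.456), Dbp (-0.386) and Bhlhe40 (-0.3). On NC ad lib they were Ciart (-0.97), Dbp (-0.705) and Hlf (-0.498), on HFS ad lib Nfil3 (-1.21), and on HFS TRF Nfil3 (-1.37) and Ciart (-0.805). All 6 astrocyte markers were lower in the averaged test too. With the astrocyte covariate the averaged calls of Ciart and Dbp, all calls on NC ad lib and that of Ciart on HFS TRF ended.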

How the results depend on the processing

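The 6 members called between HC zt15 and HC zt3 in the averaged comparison numbered 6 under each alternative and with each of the 35 mice left out. The share of all genes called there was 29.7%, and 17.4% (astrocyte covariate) to 37.0% under the alternatives. Between ORM+1 h and HC zt3 the count was 4, and 3 to 4 under the alternatives. The share of all genes called there went from 14.6% to 5.87% with the astrocyte covariate. With the astrocyte covariate the 3 were Nfil3, Bhlhe40 and Dbp, the last newly called and lower, while Ciart and Hlf lost their call. Between ORM+12 h and ORM+1 h the count was 5, with 4 to 5 under the alternatives and 4 to 5 with a mouse left out. The share of all genes was 28.7%, and 23.3% to 35.5% under the alternatives. With the astrocyte covariate the count between ORM+12 h and HC zt15 went from 3 to 1 and that of the difference of the time contrasts from 5 to 3, and with a mouse left out they were 3 to 3 and 4 to 5. The share of all genes called in the difference of the time contrasts went from 14.3% to 3.7% with the covariate. Between ORM+12 h and HC zt15 the share was 6.03%, and 1.37% to 8.29% under the alternatives. The count for diets averaged over conditions went from 1 to 0 under the filter of 1 count, in fits of the compared groups alone and without both HFS ad lib HC zt3 mice high in astrocyte markers, to 2 with the block within condition, and was 0 to 1 with a mouse left out. For HFS ad lib against NC ad lib the share of all genes was 2.61%, and 1.17% to 4.48% under the alternatives. Among values called with or without it, the astrocyte covariate turned the sign of 3 averaged ones, counting any change of sign: Dbp and Ciart at ORM+1 h against HC zt3 (-0.42 and -0.0047) and Dbp in the difference of the time contrasts (0.22). The cause was not tested.

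Replicate numbers were not used as pairs in the main fit. In no contrast was every correlation of deviations over 0.1, over 5000 genes, and at most 3 of 6 mice correlated best with their own number. For HFS ad lib against NC ad lib at HC zt15 all were positive, at 0.085 to 0.593 (median 0.348). In each other contrast the lowest was negative. The block within condition took the share of all genes called for HFS TRF against NC ad lib, averaged over conditions, from 0.269% to 3.46%. Whether replicate numbers mark a batch was not tested. The replicate block gave 6, 5, 4, 3, 1, 0, 0 and 5 calls for HC zt15 against HC zt3, ORM+12 h against ORM+1 h, ORM+1 h against HC zt3, ORM+12 h against HC zt15, diets averaged, diets within a condition, differences between diets in a change, and the difference of the time contrasts, the counts found without it. Depth limited no member, with at least 380 counts in each mouse.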
